A study of Mus musculus with 18 samples.

Results

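The *Zscan4* cluster holds the 6 genes *Zscan4a* to *Zscan4f*, and nascent RNA on them was described here in WT and *Tet2*-KO mouse embryonic stem (mES) cells. Members were the rows of the count files whose Ensembl identifier carries one of these 6 names in the GENCODE M21 annotation, 6 of 54446 gene rows. They were picked with the genotype difference of these data already known, so that difference is given as a description without a test. The libraries were made from RNA that cells had synthesized in the presence of 1 mM 5-ethynyl uridine (EU) for 10, 20 or 40 min, which was then coupled to biotin and captured on streptavidin beads. Each genotype was labelled for each time in 3 replicate dishes, which gives 6 groups and 18 libraries. All the cells grew in serum with LIF and the inhibitors CHIR99021 and PD0325901, and feeder cells were cleared by passage on gelatin. The sources name 1 WT and 1 *Tet2*-/- line, received as gifts, so no second knockout clone was measured. Spike-in RNA (ERCC) was added to the captured RNA in proportion to total RNA.

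*Zscan4* genes encode proteins with a SCAN domain and zinc fingers. They are transcribed in the late 2-cell mouse embryo and, in mES cell cultures, in a small and changing fraction of cells that also transcribe other genes of that embryonic stage. These proteins are known for their part in telomere lengthening and genome stability in mES cells, and DUX, DPPA2 and DPPA4 are known upstream activators. A library made from a whole dish averages over cells, so fewer cells with *Zscan4* transcription and less transcription in each such cell cannot be told apart here.

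Between 17931614 and 23069143 reads per library fell on genes, and between 44162 and 512186 on the 92 ERCC transcripts. Gene reads per ERCC read ranged from 42.8 to 259 in WT and from 89.6 to 429 in libraries labelled *Tet2*-KO, so the same share of gene reads stands for a higher level per ERCC read in *Tet2*-KO. Both scales are therefore given. Reads on *Tet2* made up 589 to 741 CPM (counts per 1000000 gene reads) in WT and 530 to 643 in the libraries labelled *Tet2*-KO, so they were not lost. The deleted part of the gene is not given in the sources used here, so genotypes are named here as labelled. Of 8 pluripotency markers, 7 had enough reads for a test, and *Sox2* was listed at 0 in all libraries. The overlap setting of the counting is not given in the sources used here, so this 0 is not read as absence of *Sox2* transcription.

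The 6 genes lie on chromosome 7 between positions 10794242 and 11402318 of mm10, a span of 608 kb. *Zscan4a* (10794242 to 10799057), *Zscan4b* (10900740 to 10905050), *Zscan4d* (11161374 to 11166159) and *Zscan4e* (11306378 to 11310682) are on the minus strand, and *Zscan4c* (11005745 to 11010547) and *Zscan4f* (11397915 to 11402318) on the plus strand. GENCODE M21 annotates *Zscan4a* as an unprocessed pseudogene and the other 5 as protein-coding. Between pairs of members, the annotated transcripts were 96.6% to 99.7% identical (median 97.6% over 15 pairs). Of all stretches of 100 bases in a member's transcripts, the share found in no other gene's transcripts was 70.4% for *Zscan4d*, 60.9% for *Zscan4a*, 27.2% for *Zscan4c*, 23.7% for *Zscan4b*, 19.4% for *Zscan4f* and 18.5% for *Zscan4e*. A read from a shared stretch cannot be assigned to one copy, and the values of single members are uncertain to that extent. The sum of the 6 is therefore given beside them. Reads listed as aligned to several places, 5.24% to 5.99% per library, name no gene and were left out. Reads that fit several copies may thus be missing from the members and from their sum alike.

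The likeness of the copies extends upstream of the genes. RefSeq promoter sequences (GRCm38.p6) were at hand for 4 of the 6 members, *Zscan4b*, *Zscan4c*, *Zscan4d* and *Zscan4f*. Shown are the 200 bases that run from 170 before the first base of the TATA box letters TATAAAA to 30 from it. They were chosen because all of them lie upstream of the annotated start and they place the copies side by side. That first base lies 31 bases before the annotated start in *Zscan4b* and *Zscan4f*, 54 in *Zscan4c* and 65 in *Zscan4d*. Capitals mark the 12 positions at which the 4 copies are not all the same.
Zscan4b, chr7:10905052-10905251, minus strand: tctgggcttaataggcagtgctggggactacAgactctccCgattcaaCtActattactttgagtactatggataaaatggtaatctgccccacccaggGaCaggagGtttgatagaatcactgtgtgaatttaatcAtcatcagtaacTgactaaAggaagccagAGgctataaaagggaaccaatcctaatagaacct
Zscan4c, chr7:11005521-11005720, plus strand: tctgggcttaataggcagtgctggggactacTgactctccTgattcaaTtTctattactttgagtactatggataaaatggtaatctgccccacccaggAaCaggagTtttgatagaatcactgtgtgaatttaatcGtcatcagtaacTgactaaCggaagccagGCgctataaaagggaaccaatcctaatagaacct
Zscan4d, chr7:11166184-11166383, minus strand: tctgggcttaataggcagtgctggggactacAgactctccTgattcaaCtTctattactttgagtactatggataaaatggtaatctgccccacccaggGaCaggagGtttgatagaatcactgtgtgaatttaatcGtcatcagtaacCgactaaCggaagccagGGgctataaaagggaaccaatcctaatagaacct
Zscan4f, chr7:11397714-11397913, plus strand: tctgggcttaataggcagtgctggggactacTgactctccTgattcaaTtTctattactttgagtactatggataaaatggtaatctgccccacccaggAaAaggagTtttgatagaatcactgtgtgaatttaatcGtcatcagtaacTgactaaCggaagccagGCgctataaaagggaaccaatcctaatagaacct

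The copies differed pairwise at 1 to 11 of the 200 bases (94.5% to 99.5% identity), with *Zscan4c* and *Zscan4f* the closest pair and *Zscan4b* and *Zscan4f* the most distant. The letters TATAAAA, searched on both strands, were in all 4 promoters of 300 bases and in 5.44% of 32544 RefSeq promoters of the same length. The E-box CACGTG was in none of the 4, against 7.17% of all. One fixed form of the motif that DUX binds, searched only as an exact match, was in none of the 4 and in 3 of all promoters. In the bases shown, *Zscan4c* and *Zscan4f* match this form in all but its last letters. Forms with other letters were not searched. Since so few promoters hold the exact form, its absence from the 4 is not read as absence of a site for DUX. *Zscan4b* had 1 CpG, *Zscan4d* and *Zscan4f* had 3 each and *Zscan4c* had 4 in the 300 bases, while the median of all promoters was 7.

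Nascent *Zscan4* RNA was lower in *Tet2*-KO at every labelling time. In CPM, the summed level in WT was 40.5, 43.9 and 48.5 in the 3 libraries at 10 min. It was 34.5, 35.6 and 33.7 after 20 min and 28.7, 26.9 and 25.6 after 40 min. In *Tet2*-KO the level was 5.92, 6.60 and 6.30 with 10 min of EU, 3.86, 4.35 and 5.24 with 20 min and 3.32, 3.31 and 3.85 with 40 min. The lowest WT library, at 25.6, lay above the highest *Tet2*-KO library, at 6.60, over all labelling times. The ratio of the means, WT over *Tet2*-KO, was 7.06, 7.71 and 7.75 in the order of labelling times. In reads, the 9 WT libraries together held 6759 and the 9 *Tet2*-KO libraries 830.

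Per ERCC read, the order of the genotypes was the same and the distance smaller. The summed level per 1000 ERCC reads was 2.06 ± 0.173 (s.d., n = 3) in WT and 0.598 ± 0.0336 in *Tet2*-KO at 10 min, 5.10 ± 0.450 and 0.928 ± 0.183 at 20 min, and 6.69 ± 0.482 and 1.39 ± 0.160 at 40 min. WT was 3.45-fold, 5.49-fold and 4.82-fold above *Tet2*-KO at these times, without overlap of libraries at any of them. The table as a whole moved the opposite way on this scale, with a median log2 difference over the 19910 genes tested (*Tet2*-KO over WT) of 0.96, 0.45 and 0.67 at the 3 times. As a share of gene reads these medians were -0.07, -0.03 and -0.02. The distance between *Zscan4* and the median gene was thus close to the share difference on both scales.

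**Figure D1:**
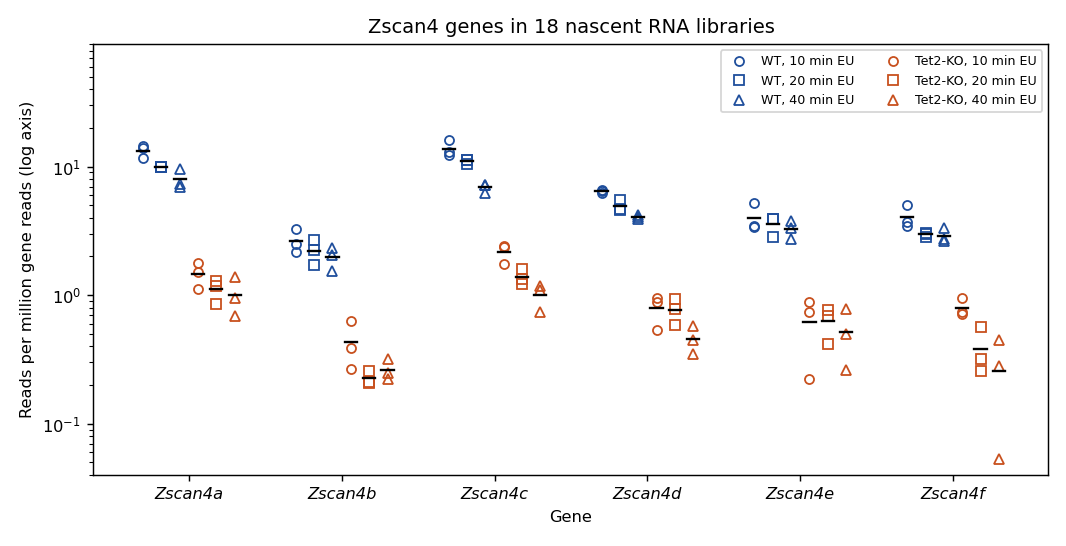
CPM (log axis) of each *Zscan4* gene in the 18 libraries, WT in blue and *Tet2*-KO in orange, with the symbol for the EU labelling time and a black bar for the mean of 3 libraries. For each gene and time the *Tet2*-KO libraries lie below the WT libraries, and the lowest point is *Zscan4f* in a *Tet2*-KO library at 40 min, with 1 read.

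All 6 members were lower in *Tet2*-KO. For each of them, at each of the 3 labelling times, all *Tet2*-KO libraries lay below all WT libraries, both as a share of gene reads, where 13.9% of the tested genes did so at each of the 3 times, and per ERCC read, where 1.56% did. Nothing is read from these shares, since the members were chosen by this contrast. *Zscan4a* ranged from 6.95 to 14.5 CPM in WT (median of 9 libraries 9.87) and from 0.692 to 1.78 in *Tet2*-KO (median 1.18). *Zscan4c* ranged from 6.27 to 16.1 in WT (median 11.2) and from 0.739 to 2.40 in *Tet2*-KO (median 1.35). These are the copies with the most reads, 143 to 323 and 129 to 354 per WT library against 14 to 40 and 14 to 54 per *Tet2*-KO library.

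The other 4 copies had fewer reads and the same direction. *Zscan4d* ranged from 3.92 to 6.62 CPM in WT (median 4.66) and from 0.346 to 0.945 in *Tet2*-KO (median 0.582). *Zscan4e* ranged from 2.73 to 5.20 in WT (median 3.45) and from 0.222 to 0.888 in *Tet2*-KO (median 0.688). *Zscan4f* ranged from 2.64 to 5.03 in WT (median 3.05) and from 0.0528 to 0.943 in *Tet2*-KO (median 0.445). The smallest of the 6 in reads was *Zscan4b*, with 1.55 to 3.28 in WT (median 2.24) and 0.206 to 0.630 in *Tet2*-KO (median 0.259). It had 4 to 12 reads per *Tet2*-KO library, and of the 6 members it was the one that would not have passed the filter on low counts in the *Tet2*-KO libraries alone.

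Averaged over labelling times, the log2 difference of the members in the edgeR fit, *Tet2*-KO over WT, ran from -3.10 ± 0.12 (SE) for *Zscan4a* to -2.63 ± 0.20 for *Zscan4e* as a share of gene reads. Between them lay *Zscan4d* at -2.95 ± 0.14, *Zscan4b* at -2.93 ± 0.22, *Zscan4f* at -2.91 ± 0.19 and *Zscan4c* at -2.81 ± 0.10. Per ERCC read they ran from -2.37 ± 0.13 for *Zscan4a* to -1.91 ± 0.19 for *Zscan4e*. The median of the 6 was -2.92 as a share and -2.20 per ERCC read, beside medians of -0.04 and 0.70 over all genes tested. The members were thus spread over less than 1 log2 unit, while their standard errors reached 0.22 as a share and 0.25 per ERCC read.

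The make-up of the sum was similar in both genotypes within the spread of single libraries. *Zscan4a* made up 29.3 ± 2.42% of *Zscan4* reads in WT (mean and s.d. of 9 libraries) and 25.8 ± 7.14% in *Tet2*-KO, and *Zscan4c* 29.5 ± 3.56% and 31.4 ± 5.13%. *Zscan4d* followed with 14.6 ± 1.05% and 14.2 ± 3.27%, *Zscan4e* with 10.5 ± 2.12% and 12.7 ± 5.09%, *Zscan4f* with 9.53 ± 1.79% and 9.47 ± 4.08%, and *Zscan4b* with 6.55 ± 1.13% and 6.50 ± 2.10%. For each copy the genotypes differed by less than the s.d. over the *Tet2*-KO libraries.

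For the order of the copies, levels were divided by the length of the annotated exons. In CPM per kb, the WT level over 9 libraries was 4.65 ± 1.41 (s.d.) for *Zscan4c*, 4.56 ± 1.13 for *Zscan4a*, 2.27 ± 0.481 for *Zscan4d*, 2.01 ± 0.408 for *Zscan4e*, 1.69 ± 0.373 for *Zscan4f* and 1.27 ± 0.287 for *Zscan4b*. *Zscan4c* and *Zscan4a* did not differ beyond their spread, with *Zscan4c* ahead in 5 of the 6 libraries at 10 and 20 min and in 0 of 3 at 40 min, whereas *Zscan4a* was above *Zscan4d* in 9 of 9. *Zscan4d* and *Zscan4e*, and *Zscan4e* and *Zscan4f*, differed by less than the s.d., with the first of each pair above in 7 and 8 of the 9 libraries. *Zscan4f* and *Zscan4b* differed by slightly more than the s.d., with *Zscan4f* above in 8. In *Tet2*-KO the level was 0.668 ± 0.251 for *Zscan4c*, 0.524 ± 0.150 for *Zscan4a*, 0.326 ± 0.135 for *Zscan4e*, 0.295 ± 0.0970 for *Zscan4d*, 0.244 ± 0.144 for *Zscan4f* and 0.169 ± 0.0746 for *Zscan4b*. There *Zscan4c* was above *Zscan4a* in 8 of 9 libraries. Neighbours in the order were within the larger s.d. of the pair, apart from *Zscan4a* and *Zscan4e*, where *Zscan4a* was above in 6 of 9 libraries. Whether reads were counted on exons or whole genes is not given in the sources used here, and the annotated spans of the members are of similar length, from 4305 to 4816 bases. The lengths also made no allowance for stretches shared between genes. The share of 100-base stretches found in no other gene ran from 18.5% for *Zscan4e* to 70.4% for *Zscan4d*. Its part in this order was not tested.

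Labelling time changes how much RNA carries EU, and the study used it to obtain transcription rates. Per ERCC read, all 6 members rose from 10 to 40 min in WT, by log2 differences from 1.41 ± 0.17 (SE) for *Zscan4c* to 2.12 ± 0.27 for *Zscan4e* (p from 3.18e-19 to 4.24e-09 in edgeR's quasi-likelihood test, adjusted over all genes by Benjamini and Hochberg). On this scale 96.7% of all tested genes were called higher, with a median of 2.26. In *Tet2*-KO 5 of the 6 rose, beside 94.7% of all tested genes and a median of 1.996. The member without a call was *Zscan4f* (0.44 ± 0.50, adjusted p = 0.376, edgeR's quasi-likelihood test), which had 16, 17 and 14 reads at 10 min and 1, 9 and 5 at 40 min. All estimates of the members lay below the median of all genes in both genotypes.

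As a share of gene reads, 3 of the 6 members were called lower at 40 than at 10 min of EU in WT. There, *Zscan4c* fell from 13.8 CPM at 10 min to 11.05 at 20 min and 6.90 at 40 min (log2 difference of 40 and 10 min -1.0 ± 0.14, adjusted p = 3.53e-07, edgeR's quasi-likelihood test). *Zscan4a* (-0.74 ± 0.15, adjusted p = 1.39e-04) and *Zscan4d* (-0.67 ± 0.18, adjusted p = 0.00251) also fell in the same edgeR fit. Of all tested genes, 29.5% were called lower in WT, where the median over all genes was -0.14. The estimates for *Zscan4f* (-0.48 ± 0.25), *Zscan4b* (-0.41 ± 0.28) and *Zscan4e* (-0.30 ± 0.26) were below 0 without a call. Fibroblast markers moved with the same contrast in WT, where 5 of 5 tested were called lower at 40 than at 10 min (median log2 difference -2.52), and their summed level was 35.6 to 38.8 CPM at 10 min, 17.8 to 19.5 at 20 min and 20.5 to 23.4 at 40 min. In *Tet2*-KO 0 of the 5 were called in edgeR's test of that contrast, and 0 had an unadjusted p under 0.05. Their part in the change of the members was not tested.

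In *Tet2*-KO, 2 of the 6 members were called lower at 40 than at 10 min, beside 20% of all tested genes and a median of -0.06. *Zscan4c* went from 2.17 to 1.39 and 0.999 CPM (-1.12 ± 0.23, adjusted p = 2.30e-04, edgeR's quasi-likelihood test). *Zscan4f* went from 0.797 to 0.381 and 0.259 (-1.57 ± 0.44, adjusted p = 0.00484, edgeR), and this call was lost without *Tet2*-KO 40 min replicate 1, the library with 1 read (-1.10, adjusted p = 0.0504). The other 4 estimates lay between -0.76 and -0.22 without a call. *Zscan4a* became called without the same library (-0.87, adjusted p = 0.0339), and *Zscan4d* without *Tet2*-KO 10 min replicate 1 (-0.999, adjusted p = 0.0282, all edgeR).

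**Figure D2:**
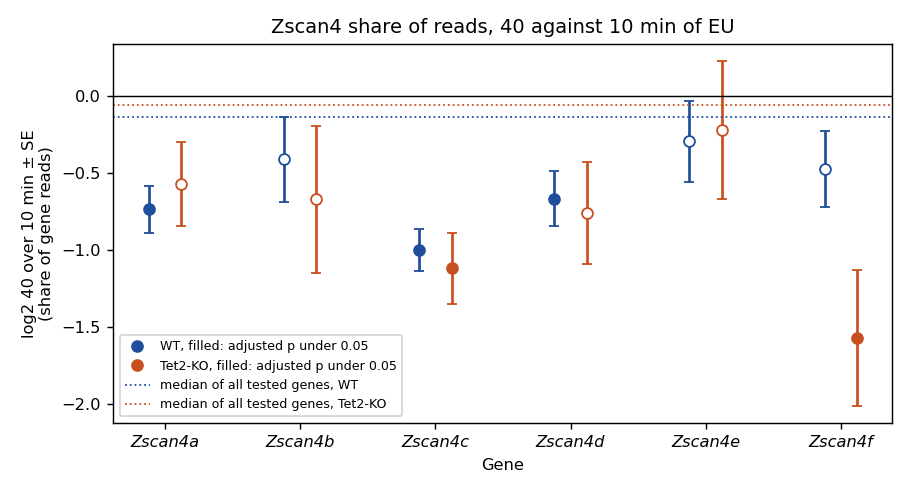
Log2 difference in the share of gene reads between 40 and 10 min of EU for each *Zscan4* gene (points, with SE as bars), WT in blue and *Tet2*-KO in orange; filled points have an adjusted p under 0.05 in edgeR's test, and dotted lines are the medians of all tested genes, -0.14 in WT and -0.06 in *Tet2*-KO. All 12 points lie below 0, and 5 of them are filled.

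Whether the change with labelling time differed between the genotypes was tested on both scales, per ERCC read only after values had been seen. In edgeR's test of the interaction between genotype and labelling time on the share of gene reads, 0 of the 6 members were called between 10 and 40 min, and 1 had an unadjusted p under 0.05, *Zscan4f* (-1.10 ± 0.51, adjusted p = 0.192). Of all tested genes, 5.89% were called higher and 3.36% lower in that test. Between 10 and 20 min 0 members were called and 0 had an unadjusted p under 0.05, beside 2.37% of genes called higher and 2.07% lower. DESeq2's Wald test called 0 of 6 in both. The SE of the member estimates ran from 0.27 to 0.54 log2 units for 10 to 40 min, which limits what could be detected at this depth.

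Per ERCC read, 1 member was called in each interval, in the direction of most genes on this scale. Between 10 and 20 min it was *Zscan4c* (-0.88 ± 0.30, adjusted p = 0.00994, edgeR's quasi-likelihood test), beside 50.4% of all tested genes called lower, 0.362% called higher and a median of -0.51. This call was lost without *Tet2*-KO 20 min replicate 1 (adjusted p = 0.0516, edgeR). Between 10 and 40 min it was *Zscan4f* (-1.46 ± 0.55, adjusted p = 0.0431, edgeR), beside 19.3% called lower, 0.552% called higher and a median of -0.29. This call was lost without any 1 of the libraries at 10 or 40 min other than WT 10 min replicate 2 and *Tet2*-KO 40 min replicate 2, which is 10 of 18 libraries (adjusted p up to 0.170), and in DESeq2's Wald test (adjusted p = 0.0502).

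The slope of the summed level on labelling time, fitted by least squares with an intercept over 9 libraries, was 0.144 ± 0.0231 (SE) reads per 1000 ERCC reads per min in WT and 0.0259 ± 0.00363 in *Tet2*-KO, a ratio of 5.55, WT over *Tet2*-KO. For all gene reads the slope was larger in *Tet2*-KO, with a ratio of 1.55, *Tet2*-KO over WT. Among the 19689 tested genes with a positive slope in both genotypes, 0.716% had a smaller ratio than the 0.180 of the *Zscan4* sum. Nothing is read from this share, since the members were chosen by the genotype difference and their sum is set beside single genes. The fitted line met time 0 at 1.27 ± 0.611 (SE) in WT and 0.368 ± 0.0961 in *Tet2*-KO, which is 61.4% and 61.5% of the mean level at 10 min. For all gene reads the intercept was -6.79% of the 10 min level in WT and -0.171% in *Tet2*-KO. In WT the summed level rose from 2.06 to 5.10 over the first 10 min interval and from 5.10 to 6.69 over the following 20 min, so a straight line describes it poorly. In *Tet2*-KO the 3 means lay nearer to a line.

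**Figure D3:**
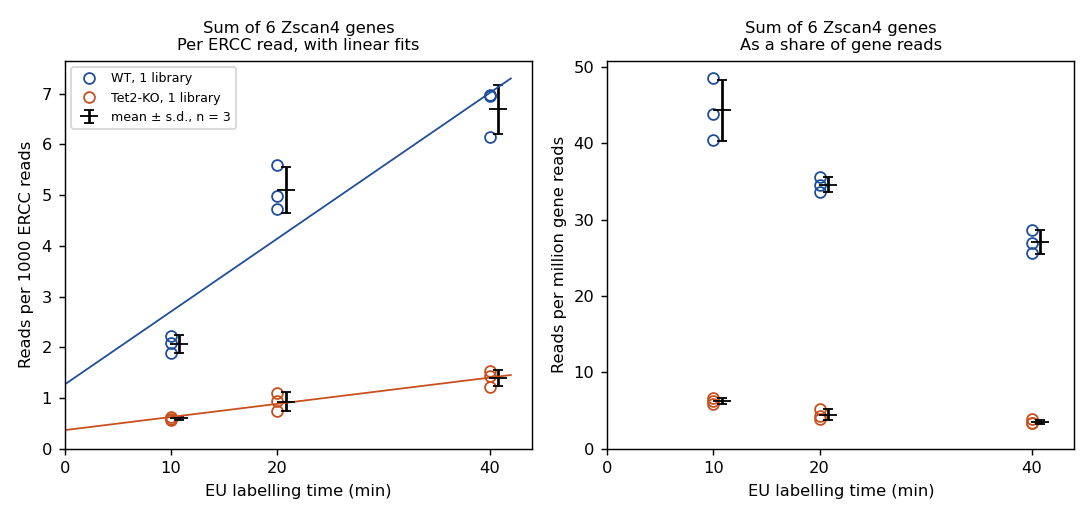
Summed reads of the 6 *Zscan4* genes against EU labelling time, per 1000 ERCC reads with linear fits (left) and in CPM (right); circles are libraries, and black marks, set slightly to the right, are the mean ± s.d. of 3 libraries. Per ERCC read both genotypes rise, WT to 6.69 and *Tet2*-KO to 1.39, and as a share of gene reads both means are lower at 40 than at 10 min, WT from 44.3 to 27.1 and *Tet2*-KO from 6.27 to 3.49.

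The genes nearest to the cluster were then described. Within 200000 bases on either side and between the members, 56 other genes are annotated, and 3 of them had a mean of at least 10 reads per library. They are *Zscan4-ps1* (11065139 to 11069691), *Zscan4-ps2* (11514310 to 11519111) and the unprocessed pseudogene *Gm45551* (11478208 to 11479567). *Zscan4-ps1* had 40 to 83 reads in WT libraries and 1 to 13 in *Tet2*-KO libraries (log2 difference as a share of gene reads -3.23 ± 0.23). *Zscan4-ps2* had 24 to 74 and 3 to 13 (-2.91 ± 0.22), and *Gm45551* 30 to 93 and 1 to 12 (-3.03 ± 0.25). These differences are given as a description without a test, as for the members.

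*Zscan4-ps3* (11609308 to 11614112), just outside that window, had 71 to 139 reads in WT libraries and 7 to 14 in *Tet2*-KO libraries (-3.32 ± 0.16). In GENCODE M21 these 3 copies with pseudogene names are annotated as protein-coding. Since their sequences are close to those of the members, a read that fits several copies may be missing or placed on another copy. Their values are therefore not independent of the members'. With these 3 added, the sum was 7.40-fold, 8.14-fold and 7.92-fold higher in WT than in *Tet2*-KO at 10, 20 and 40 min as a share of gene reads.

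**Figure D4:**
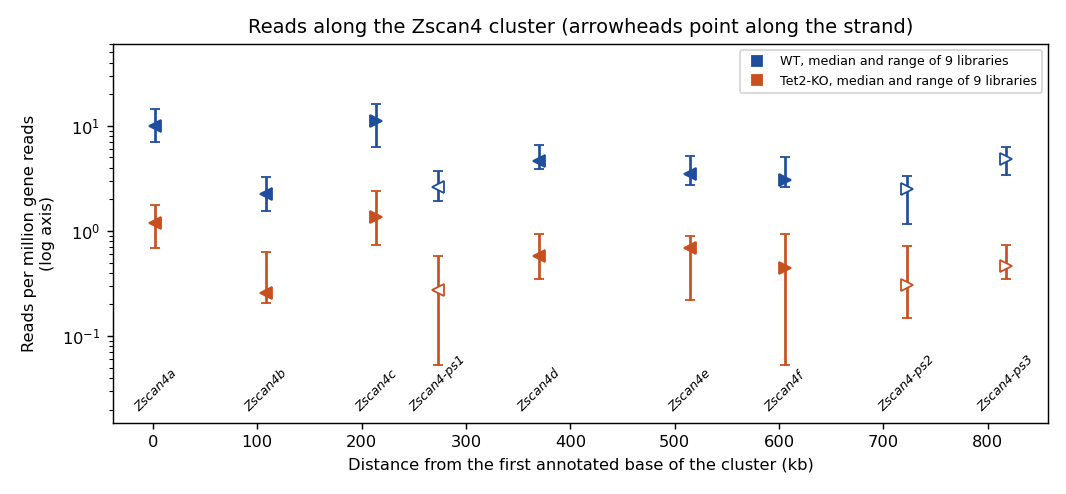
CPM (log axis) of the 6 *Zscan4* genes (filled) and 3 *Zscan4* copies with pseudogene names (open) against distance in kb from the first base of *Zscan4a*; arrowheads point along the annotated strand, and bars span the lowest to the highest of 9 libraries around the median, WT in blue and *Tet2*-KO in orange. At all 9 positions the *Tet2*-KO range lies below the WT range.

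Other genes of the 2-cell-like state were taken from a list of 45 genes, of which 44 were in the files and 27 had enough reads for a test. As a share of gene reads, 22 of the 27 were lower in *Tet2*-KO and 4 higher, beside 32% and 24.6% of all tested genes (edgeR's quasi-likelihood test averaged over labelling times, adjusted p under 0.05), and their median log2 difference was -2.09. Per ERCC read 19 were lower and 6 higher, beside 4.15% and 80.5% of all tested genes, with a median of -1.36. Many of these genes have near-identical copies too, so they are not independent of one another. The filter on low counts can keep a gene through the genotype in which it is higher, so these counts can be tilted toward genes that differ. With at least 10 reads in every library, 7 genes of the list were left for testing. This list and the gene lists that follow were chosen with earlier results of these data known. Their counts of genotype calls are therefore a description and no independent support. Of the 17 without enough reads, *Duxf3*, the *Dux* copy in the files, had 0 to 9 reads in WT libraries and 0 to 2 in *Tet2*-KO libraries, which is too few for a comparison.

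The 3 genes of this list with the most reads did not all follow *Zscan4*. *Calcoco2*, an autophagy receptor gene, was higher in *Tet2*-KO, with 104 to 119 CPM in WT and 167 to 194 in *Tet2*-KO (0.69 ± 0.02, adjusted p = 7.96e-24, edgeR). *P4ha2*, a subunit of the collagen prolyl hydroxylase, was lower, with 7.73 to 11.03 in WT and 3.17 to 5.34 in *Tet2*-KO (-1.23 ± 0.08, adjusted p = 2.19e-14, edgeR). *Ddit4l* was lower as a share (-0.32 ± 0.09, adjusted p = 0.00373, edgeR) and higher per ERCC read (0.41 ± 0.10, adjusted p = 1.09e-04, edgeR).

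Further genes at both ends of this list were picked after their values were seen and are described without a test. *Zfp352*, a zinc finger gene of the 2-cell stage, had 9 to 23 reads in WT libraries and 0 to 4 in *Tet2*-KO libraries (-3.48 ± 0.45 as a share of gene reads). *Usp17lc*, of a family of deubiquitinase genes, had 50 to 110 and 6 to 14 (-2.55 ± 0.17). At the other end, *Tdpoz1* had 16 to 45 reads in WT libraries and 103 to 232 in *Tet2*-KO libraries (2.72 ± 0.13). *Trim43a* had a value of 1.80 ± 0.41, *Trim43b* of 0.86 ± 0.32 and *Trim43c* of -0.02 ± 0.35.

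**Figure D5:**
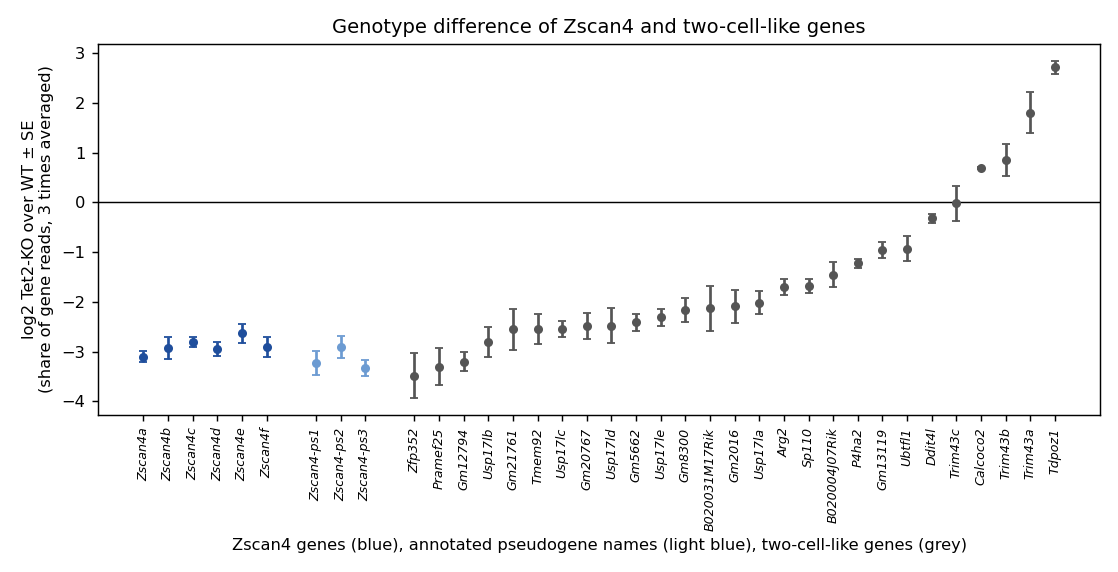
Log2 difference of *Tet2*-KO and WT in the share of gene reads, averaged over labelling times (points, with SE as bars), for the 6 *Zscan4* genes (blue), 3 *Zscan4* copies with pseudogene names (light blue) and the 27 tested genes of the 2-cell-like list in order of their value (grey). The *Zscan4* genes lie between -3.10 and -2.63, and 22 of the grey genes were called lower and 4 higher in edgeR's test.

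Of the genes known to act upstream of *Zscan4*, those with enough reads for a test differed less between the genotypes. *Duxf3* had too few reads for a comparison. Of 5 activator genes in the files, 4 were tested, and as a share of gene reads 1 was higher and 1 lower in *Tet2*-KO, beside 24.6% and 32% of all tested genes. *Dppa4* fell (-0.48 ± 0.07, adjusted p = 2.40e-07, edgeR's quasi-likelihood test), with 43.3 to 93.3 CPM in WT and 30.8 to 68.4 in *Tet2*-KO. *Dppa2*, its partner, had a value of 0.04 ± 0.03 and *Nelfa* of -0.07 ± 0.04 without a call, and *Tbx3*, which encodes a T-box factor, rose (0.29 ± 0.02, adjusted p = 7.31e-16, edgeR). Per ERCC read all 4 were higher in *Tet2*-KO, as were 80.5% of all tested genes.

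Of 25 genes known to hold the 2-cell-like state back, all tested, 15 were higher and 5 lower as a share of gene reads, with a median of 0.11 (24.6% and 32% of all tested genes, median -0.04). Per ERCC read 24 were higher and 0 lower, with a median of 0.85 (80.5% and 4.15% of all tested genes, median 0.70). The 3 with the most reads were *Ncl* (0.13 ± 0.01), *Rif1* (0.17 ± 0.01) and *Mga* (0.05 ± 0.01), all higher as a share (adjusted p = 2.77e-16, 1.32e-16 and 1.82e-04 in that order, edgeR). *Ncl* encodes nucleolin, *Rif1* a protein of replication timing and heterochromatin, and *Mga* a subunit of a variant polycomb complex. Their differences were small beside those of *Zscan4*, all of them below 0.2 log2 units in size.

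Among 16 genes of telomere maintenance and meiotic recombination, 6 were higher, 5 lower and 5 without a call as a share of gene reads, with a median of 0.01, beside 24.6% and 32% of all tested genes called higher and lower. Per ERCC read 16 were higher, beside 80.5% of all tested genes. *Atrx*, a chromatin remodeller at telomeres, rose by 0.38 ± 0.01 (adjusted p = 8.55e-26, edgeR's quasi-likelihood test). *Terf1*, of the shelterin complex, had a value of 0.06 ± 0.02 (adjusted p = 0.00563, edgeR) and *Dkc1*, of the telomerase complex, of -0.10 ± 0.02 (adjusted p = 1.35e-04, edgeR).

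Of 15 other genes with SCAN domains and zinc fingers, 3 were higher, 5 lower and 7 without a call as a share of gene reads, beside 24.6% and 32% of all tested genes called higher and lower. The 3 lower per ERCC read, which are also among the 5, were the *Zscan4* copies with pseudogene names. Their values are not independent of the members'. The genotype difference of these copies is a description, as for the members. Nothing is therefore read from these 3 calls or from the count of 5 that holds them. *Zscan10*, a pluripotency factor, had a value of 0.02 ± 0.03 without a call, *Zscan18* was higher (0.41 ± 0.03) and *Zscan25* lower (-0.27 ± 0.03). Of the TET dioxygenases, *Tet1* was higher (0.08 ± 0.01) and *Tet2* lower (-0.20 ± 0.01) as a share, and *Tet3* (-0.04 ± 0.05) was not called. Per ERCC read all 3 were higher in *Tet2*-KO, beside 80.5% of all tested genes.

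Markers of cells other than mES cells were summed. The total of 8 fibroblast markers, which stand for feeder cells, ran from 17.8 to 38.8 CPM in WT and from 15.2 to 26.2 in *Tet2*-KO. For 6 primitive endoderm markers the range was 6.75 to 13.8 in WT and 5.49 to 10.7 in *Tet2*-KO, and for 5 trophectoderm markers 8.94 to 11.6 and 12.9 to 18.2. *Cdx2* and *Hand1*, which define trophectoderm, did not exceed 0.279 and 0.314 CPM in any library. As a share of gene reads 2, 0 and 1 genes of these lists were higher and 1, 1 and 1 lower. The tested genes numbered 5, 4 and 3, and 24.6% of all tested genes were higher and 32% lower. Among the markers called, *Gata3* was higher (1.49 ± 0.09), and *Eomes* (-0.66 ± 0.10), *Gata4* (-0.42 ± 0.10) and *Fbn1* (-0.66 ± 0.06) were lower. *Col1a1* was higher (0.40 ± 0.11), and *Col1a2* (0.32 ± 0.18), *Gata6* (0.46 ± 0.22), *Pdgfra* (-0.23 ± 0.15) and *Elf5* (0.77 ± 0.45) were not called. The 8 pluripotency markers together ran from 2872 to 3053 in WT and from 2093 to 2210 in *Tet2*-KO. As a share of gene reads 6 of the 7 tested pluripotency markers were lower in *Tet2*-KO (median -0.25), beside 32% of all tested genes (median -0.04). The 1 higher, beside 24.6% of all tested genes, was *Pou5f1*, which encodes OCT4 (0.16 ± 0.03). Per ERCC read 5 were higher (median 0.47), beside 80.5% of all tested genes (median 0.70). The 1 lower, beside 4.15% of all tested genes, was *Zfp42*. This gene, which encodes REX1, fell by 2.25 ± 0.02 on the log2 scale, *Tfcp2l1* by 0.47 ± 0.01 and *Esrrb* by 0.06 ± 0.01, as shares of gene reads. The part of these markers in the *Zscan4* difference was not tested.

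Genes with a pattern like that of the *Zscan4* sum were sought among the other 19904 tested genes, by Pearson's r of log2 CPM over the 18 libraries. Genes among the 10 highest were *Scamp1* (0.995), *Malat1* (0.994), *App* (0.994), *Emb* (0.994), *Ift46* (0.993), *Syne2* (0.993), *Fmn2* (0.993), *Tnpo1* (0.992) and *Fcho2* (0.991). Of these, *Scamp1*, *Emb*, *Tnpo1* and *Fcho2* lie on chromosome 13, and the others on chromosomes 1, 9, 12, 16 and 19. The part of position in this ranking was not tested. The libraries fall into 2 clusters by genotype, and 387 genes had an r above 0.95, so this ranking mostly orders genes by how cleanly the genotypes part. After subtraction of the mean of each group of 3 libraries, the 5 highest were *Drr1* (0.883), *AC161456.1* (0.864), *Rad50* (0.863), *Ogdh* (0.850) and *1110065P20Rik* (0.809), picked among 19904 genes over the same 18 libraries. The remaining spread of the sum within groups was small, with an s.d. of 0.117 log2 units. Of the known activators, *Dppa4* had an r of 0.700 over the 18 libraries and 9.05e-05 within groups, and *Dppa2* of -0.130 and -0.00619.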

How the data were processed

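A total of 18 nascent RNA libraries, 9 from WT and 9 from *Tet2*-KO mES cells, was analysed, with the groups taken from the sample labels. The authors trimmed reads with Trimmomatic 0.39, aligned them with HISAT2 2.2.1 to mm10 with GENCODE M19 and ERCC sequences, and deposited raw read counts per gene from HTSeq 0.12.4, whose feature type, strand and overlap settings are not given in the sources used here. Rows that name no gene were left out. They made up 20.9% to 24.9% of all rows' reads, and reads aligned to several places were 5.24% to 5.99% per library. Names and positions came from GENCODE M21, which holds 54409 of the 54446 identifiers. Replicates of a group differed by more than counting noise (chi-square per gene 1.66 to 5.52 over 18 pairs). P-values measure the spread between dishes of 1 line per genotype.

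Genes were kept by filterByExpr (minimum count 10), which left 19910 and all 6 members. The test was edgeR's quasi-likelihood test (edgeR 4.0.16, R 4.3.3) on one fit of 6 groups, with ERCC read totals or total gene reads as library sizes and Benjamini-Hochberg adjustment over all genes at 0.05. The SE of a log2 difference was taken from its size and its F statistic (size over root of F). Alternatives were DESeq2 1.42.0, other scalings and filters, a replicate block, leaving out each library and, added after seeing the data, the interaction per ERCC read, and the fits were tested on simulated data. Intervals from reads cover counting error only, since reads carry no molecular identifiers. Named genes were all members, the 3 most-read genes of each list with all activators and TET genes, neighbours within 200000 bases with a mean of at least 10 reads, and genes among the 10 and the 5 most alike, of which 1 is not reported here. Likeness used log2(CPM + 0.5). The members and lists were chosen with earlier results of these data known. Same-numbered replicates did not deviate together (correlations -0.17 to 0.16, median 0.00).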

Additional observations from a re-analysis of the deposited data

Results flagged for a closer look

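The genotype difference of no *Zscan4* member changed with labelling time past the threshold as a share of gene reads. Per ERCC read it did for *Zscan4f* from 10 to 40 min (-1.46 ± 0.55) and for *Zscan4c* from 10 to 20 min (-0.88 ± 0.30), beside medians over all genes of -0.29 and -0.51. Among the other genes named, it did for 10 as a share, in edgeR's test of the interaction on the share of gene reads. The values are the change of the log2 difference, *Tet2*-KO over WT, and the difference itself was tested. From 10 to 40 min it was -0.25 ± 0.04 (SE) for *Tbx3*, -0.10 ± 0.02 for *Rif1*, -0.094 ± 0.03 for *Mga*, -0.15 ± 0.02 for *Atrx*, 0.18 ± 0.04 for *Zfp42*, 1.53 ± 0.27 for *Col1a1*, 2.71 ± 0.43 for *Col1a2* and -0.81 ± 0.23 for *Gata3*. From 10 to 20 min it was -0.21 ± 0.04 for *Tbx3*, -0.17 ± 0.02 for *Rif1*, -0.22 ± 0.02 for *Atrx*, -0.13 ± 0.02 for *Tet1*, 0.69 ± 0.14 for *Fbn1*, 3.24 ± 0.27 for *Col1a1* and 3.90 ± 0.43 for *Col1a2*. *Col1a1* and *Col1a2* are collagen genes of fibroblasts.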

How the results depend on the processing

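The summed *Zscan4* level was lower in *Tet2*-KO under every alternative run. Other sums and denominators gave a log2 difference from -1.86 to -1.79 at 10 min, -2.54 to -2.44 at 20 min and -2.32 to -2.27 at 40 min per ERCC read, and from -2.90 to -2.75, -3.03 to -2.91 and -3.02 to -2.94 as a share of gene reads. Leaving out 1 library gave -1.85 to -1.73, -2.60 to -2.32 and -2.34 to -2.18 per ERCC read, and -2.88 to -2.75, -3.07 to -2.85 and -3.03 to -2.91 as a share. Of 688 values of single members under alternatives, 0 were reversed. With at least 10 reads in every library, 2 members and 7 genes of the 2-cell-like list were left for testing, so that 2 members rose from 10 to 40 min per ERCC read in WT and 2 in *Tet2*-KO, 1 member fell as a share in *Tet2*-KO, and 3 (per ERCC read) and 5 (share) genes of the list were lower in *Tet2*-KO.

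Leaving out 1 library gave 3 falling members as a share in WT, 2 to 3 in *Tet2*-KO, and 6 rising members per ERCC read in WT and 4 to 5 in *Tet2*-KO. It gave 19 to 20 and 22 to 23 lower genes of the 2-cell-like list, and 15 higher genes that hold that state back. A replicate block was also run, which the data did not call for. With it, 3 and 2 members fell as a share, and 6 and 5 rose per ERCC read. It left 19 and 22 genes of the list lower and 15 of the genes holding the state back higher. As a share of gene reads 0 members had an interaction, as without the block. Per ERCC read *Zscan4c* stayed called from 10 to 20 min (adjusted p = 0.0114) and *Zscan4f* from 10 to 40 min (adjusted p = 0.0410, both edgeR's quasi-likelihood test). *Dppa2* became called higher with TMM and with DESeq2's size factors (0.08 and 0.07), and *Esrrb* lost its call (-0.02 and -0.02). With 63 to 133 *Zscan4* reads per *Tet2*-KO library, changes of single copies with labelling time were measured with errors of up to 0.54 log2 units as a share of gene reads. The interaction per ERCC read, added after seeing the data, gave 1 member lower between 10 and 40 min against 0 as a share.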
